A study of Mus musculus with 4 samples.

Results

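NK-type receptors are surface proteins first described on natural killer (NK) cells that are also carried by subsets of CD8 T cells. This account covers 10 genes, given as a list of symbols: the receptors Klrd1, Klrk1, Klrc1, Klre1, Klrg1, Klrb1c, Ncr1, Cd160 and Cd244 (listed under its current symbol Cd244a), and the adaptor gene Hcst. All 10 were measured, among 19938 genes tested. The study profiled naive CD8 T cells sorted by flow cytometry from the spleen, with 2 samples from Klf13 knockout (KO) mice and 2 from wild-type (WT) mice, each on its own 1-colour array. All 4 samples came from the BALB/c strain, so the groups differ by label in the Klf13 genotype alone. The sources used here give neither the deleted part of Klf13, nor the age of the mice, nor the markers of the sort gate. Whether replicates came from different mice is not labelled, so each p-value rests on a spread between arrays that could be technical.

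Receptors of this kind adjust the response of a cytotoxic lymphocyte to the cell it touches. Activating members such as NKG2D (the product of Klrk1) have no signalling tail of their own and borrow an adaptor, whereas inhibitory members such as NKG2A (Klrc1) carry tyrosine motifs that recruit phosphatases. Many of the genes lie together in the NK gene complex on mouse chromosome 6, and on CD8 T cells several of the proteins appear with activation, memory or memory-like differentiation. Klf13 encodes a zinc-finger factor of the SP/KLF family, whose members bind GC-rich and CACCC-type DNA.

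Of the 10 genes, 1 rose in KO cells, 0 fell and 9 did not pass the test (limma, Benjamini-Hochberg adjusted p under 0.05 over all genes). Over all genes tested, 2.25% passed, 1.19% as higher and 1.05% as lower in KO, or 238 higher and 210 lower genes. After centring of each array on its median 237 were higher and 851 lower, so that 21.8% of those that passed were higher, against 53.1% without it. The member that rose was Cd244a. On 7 of the 10 genes the KO and WT arrays did not overlap, 4 with both KO arrays above (24.4% of all genes) and 3 with both KO arrays below (23.2% of all genes), which together compares with 47.6% of all genes. At an unadjusted p under 0.05 the count was 6 of 10, against 16.6% of all genes tested. The median log2 fold change of the members, KO minus WT, was 0.10, against 0.02 for all genes, and single members lay between -0.27 and 0.55. The members' median was 0.01 without KO replicate 2 and after median centring. Median centring also lowered the median over all genes, to -0.07. Changes varied with level over all genes: the groups of 1993 and 1994 genes, ranked by mean level, with median levels of 3.72 and 4.28, which hold 5 of the members, had median changes of 0.08 and 0.09. Brighter groups went the other way: those with median levels of 6.08 and 6.87, which hold 1 member each, had median changes of -0.07 and -0.09.

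The sequence shown is that of the stretch just before the start of Cd244a, because it is the only member that passed the test and because the factor removed in these mice belongs to a family that binds CACCC boxes. It is the 250 bases at chr1:171558943-171559192 (GRCm38.p6, plus strand, from RefSeq), with letters of a searched motif in capitals.
Cd244a: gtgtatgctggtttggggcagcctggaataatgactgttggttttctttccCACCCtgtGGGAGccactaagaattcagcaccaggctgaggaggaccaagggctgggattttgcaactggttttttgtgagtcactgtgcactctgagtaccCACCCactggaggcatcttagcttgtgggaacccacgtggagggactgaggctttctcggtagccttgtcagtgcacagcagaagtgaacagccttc
The motifs searched, on both strands, were the CACCC box, which reads as GGGTG on the opposite strand, then CTCCC, which reads there as GGGAG, and the GC box GGGCGG, which reads there as CCGCCC. Matches were allowed to overlap, and in this window they did not. Cd244a held 2 matches to CACCC, 1 to CTCCC and 0 to the GC box. Windows of the same length held CACCC in 52.0%, CTCCC in 65.1% and the GC box in 32.7% of 32851 promoters, so letters of this kind are common. RefSeq's table gave a promoter for 8 of the 10 genes, in 11 windows. Of these 8 genes, 6 held CACCC, 6 held CTCCC and 1, Cd160, held the GC box, while the windows of Klrk1 and Klrc1 held none of the 3. Counted by window, as the shares are, 9 of the 11 held CACCC, 8 held CTCCC and 1 held the GC box. Some genes have 2 windows, so the windows are not independent. A match describes letters and shows no binding.

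The targeted gene, Klf13, read 5.46 and 5.43 on the log2 scale in KO cells, against 7.01 and 7.15 in WT cells (limma adjusted p = 3.75e-05). Cd8a, a CD8 chain, lay between 11.1 and 11.3 on all arrays and differed by -0.07. No detection calls were used, so no gene is called absent. In all 4 arrays, 7 of the 10 members lay below the array's median over genes (4.66 to 4.71 in KO, 4.59 to 4.61 in WT), and 2, Klre1 and Klrb1c, lay below the lower quartile. Array summaries compress the folds of such dim genes. Each probe set binds with its own strength, so this ranking of levels between genes is rough, and changes are read within a gene.

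**Figure D1:**
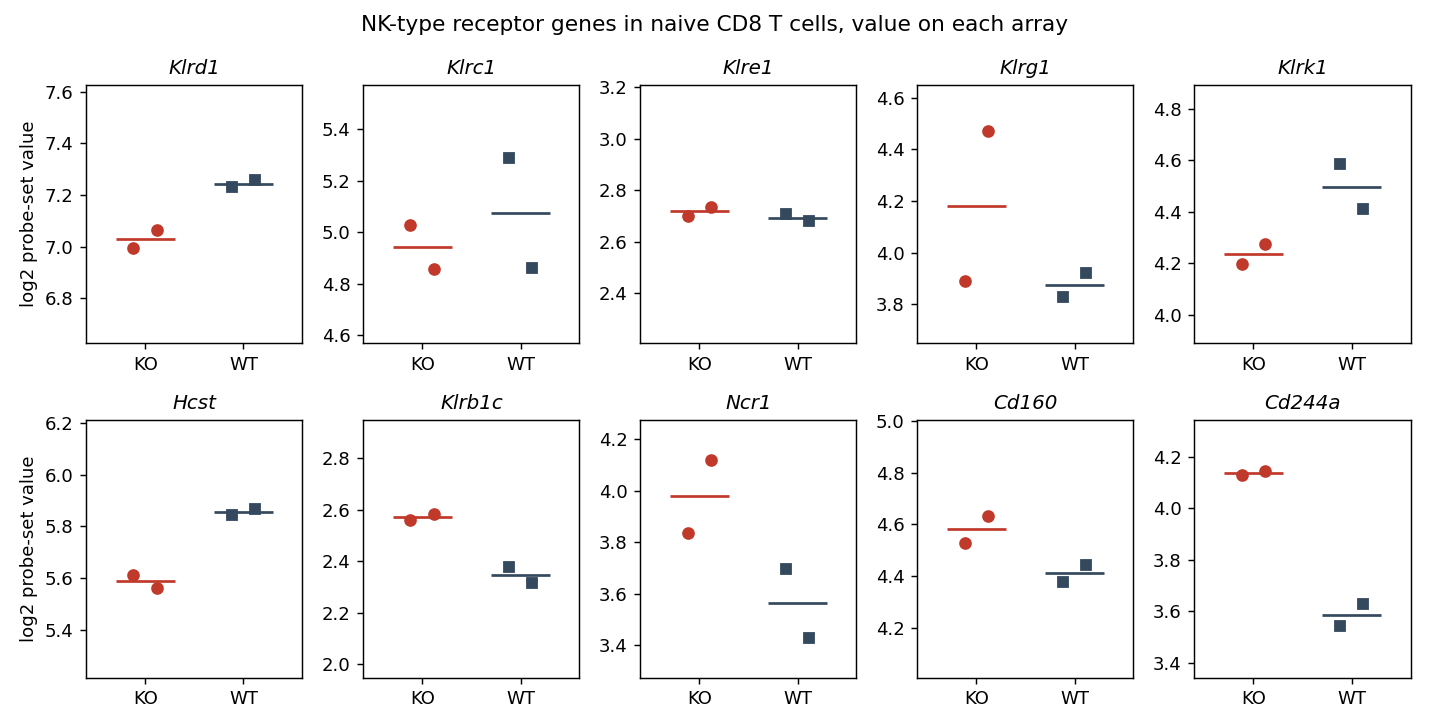
Value of each NK-type receptor gene on each array (log2 probe-set value, vertical axes of equal span but different position), with Klf13 KO arrays as circles, WT arrays as squares and lines at group means. Cd244a shows the widest gap between groups, 0.50, and Klrg1 the widest spread within a group, 0.58 between its KO arrays.

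Among the receptors of the immunoglobulin family, Cd244a encodes 2B4, a SLAM-family receptor that binds CD48 and can activate or inhibit according to the adaptors present. Cd244a read 4.13 and 4.14 in KO cells, against 3.54 and 3.63 in WT cells. Both KO arrays stood above both WT arrays, and the gap of 0.50 between the groups exceeded the spread within either, 0.02 in KO and 0.09 in WT. The log2 fold change was 0.55 (SE 0.09, 95% interval 0.34 to 0.75, limma adjusted p = 0.0147), a 1.46-fold higher level. Without WT replicate 1 the adjusted p was 0.115 with a change of 0.51, so that call rests in part on 1 array. After a further quantile normalization the change was 0.46 and the limma adjusted p was 0.0496, just under the threshold of 0.05. In RNA from a sorted population, more cells that carry a transcript and more transcript per cell cannot be told apart.

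Ncr1 encodes NKp46, an activating receptor that marks NK cells in the mouse. Ncr1 read 3.84 and 4.12 in KO cells, against 3.70 and 3.43 in WT cells. The groups did not overlap, but the gap of 0.14 between them was smaller than the spread within KO (0.28) or WT (0.27). Its change of 0.41 did not pass (95% interval 0.13 to 0.69, limma adjusted p = 0.139). With 1 array left out it ranged from 0.27 (without KO replicate 2) to 0.56 (without KO replicate 1) and did not pass.

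Cd160 encodes a receptor that binds HVEM, the product of Tnfrsf14, and has both stimulating and inhibiting roles. Cd160 read 4.53 and 4.63 in KO cells, against 4.38 and 4.44 in WT cells. The KO arrays were the higher pair by 0.08, less than the 0.11 between the KO arrays themselves. The change of 0.17 did not pass (95% interval -0.04 to 0.38, limma adjusted p = 0.414).

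In the NKG2 and CD94 group, Klrd1 encodes CD94, the shared partner of the NKG2 chains. Klrd1 read 6.996 and 7.063 in KO cells, against 7.229 and 7.257 in WT cells. Both KO arrays were below both WT arrays by at least 0.17, more than the 0.07 and 0.03 within the KO and WT pairs. The change of -0.21 did not pass (95% interval -0.42 to -0.01, limma adjusted p = 0.280). Klrc1, whose product NKG2A pairs with CD94 and inhibits on binding Qa-1, read 5.03 and 4.86 in KO cells, against 5.29 and 4.86 in WT cells. The groups overlapped, and the WT arrays alone lay 0.42 apart. Its change was -0.13 (95% interval -0.44 to 0.17, limma adjusted p = 0.682), and without WT replicate 1 it was 0.08, the opposite sign.

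Klrk1 encodes NKG2D, which recognises stress-induced ligands, and Hcst encodes DAP10, the adaptor that NKG2D needs to signal through phosphatidylinositol 3-kinase. Klrk1 read 4.20 and 4.27 in KO cells, against 4.58 and 4.41 in WT cells. The KO pair was lower by at least 0.13, within the 0.17 that separated the WT arrays. The change of -0.26 did not pass (95% interval -0.48 to -0.04, limma adjusted p = 0.234). Hcst read 5.61 and 5.56 in KO cells, against 5.84 and 5.87 in WT cells. Here the gap between groups, 0.23, exceeded the 0.05 and 0.02 within the KO and WT pairs. The change of -0.27 (95% interval -0.47 to -0.07) did not pass either (limma adjusted p = 0.182). Receptor and adaptor both read lower on the KO arrays, neither by enough to pass the test over all genes.

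Klrg1 encodes an inhibitory receptor for cadherins that marks differentiated effector cells. Klrg1 read 3.89 and 4.47 in KO cells, against 3.83 and 3.92 in WT cells. KO replicate 2 was high and KO replicate 1 lay among the WT arrays, so the groups overlapped. The change of 0.31 did not pass (95% interval -0.05 to 0.66, limma adjusted p = 0.382). It was 0.60 without KO replicate 1 (limma adjusted p = 0.0433, resting on KO replicate 2 alone) and 0.01 without KO replicate 2.

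Klrb1c encodes NKR-P1C, an activating receptor known as NK1.1 in C57BL/6 mice. Klrb1c read 2.56 and 2.58 in KO cells, against 2.38 and 2.31 in WT cells, with a change of 0.22 that did not pass (95% interval 0.02 to 0.43, limma adjusted p = 0.258). The KO arrays were the higher pair by 0.18, at levels near the low end of the scale. Klre1 encodes a receptor chain that acts in a pair with KLRI1 or KLRI2. Klre1 read 2.70 and 2.74 in KO cells, against 2.71 and 2.68 in WT cells, and the groups overlapped. Its change was 0.03 (95% interval -0.18 to 0.23, limma adjusted p = 0.921), and the sign turned after a further quantile normalization (-0.02) and after median centring (-0.06).

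**Figure D2:**
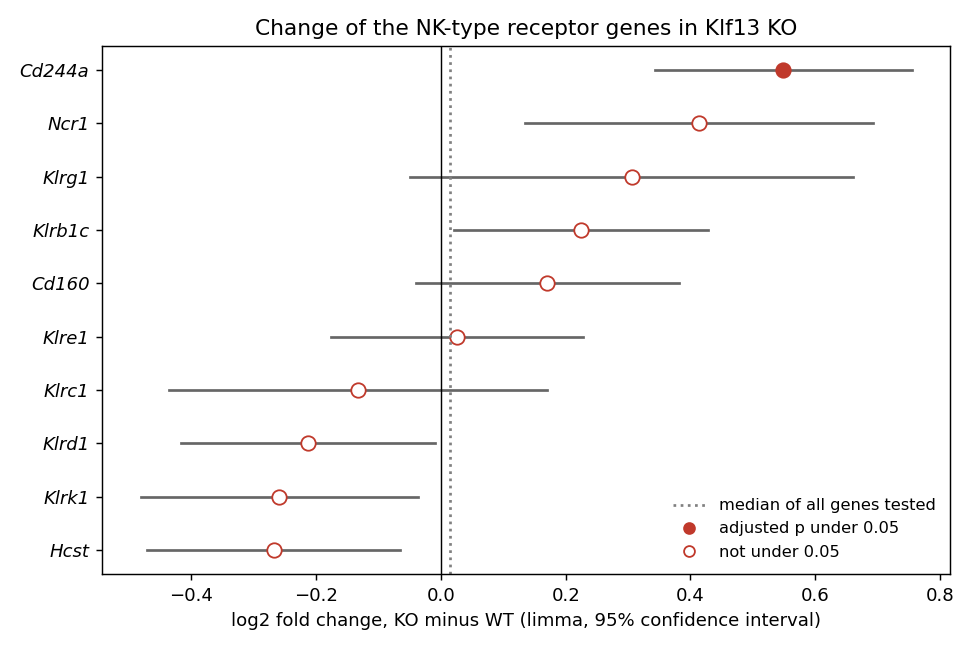
Log2 fold change (KO minus WT) of each NK-type receptor gene with its limma 95% interval; the dotted line is the median of all genes tested. Cd244a at 0.55 is the filled point, and the changes run from there to -0.27 for Hcst.

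By role, the 3 activating receptors Klrk1, Klrb1c and Ncr1 differed in sign (-0.26, 0.22 and 0.41), as did the inhibitory Klrc1 and Klrg1 (-0.13 and 0.31). The 6 members on chromosome 6 ranged from -0.26 (Klrk1) to 0.31 (Klrg1). Hcst and Ncr1 lie on chromosome 7 with Klf13, and in the gene order of GRCm38.p6 283 and 709 measured protein-coding genes separate them from it. The closest neighbour of Hcst is Tyrobp, which encodes DAP12, the adaptor of several activating NK receptors. Tyrobp read 5.17 and 5.11 in KO cells, against 4.35 and 4.69 in WT cells, a change of 0.62 (SE 0.12, limma adjusted p = 0.0271). Tyrobp thus rose while Hcst read lower; the difference between the 2 changes was not tested. Tyrobp did not pass without KO replicate 1 (0.144), KO replicate 2 (0.0501) or WT replicate 1 (0.238), nor after a further quantile normalization (0.0753).

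Genes of the same receptor families were read from lists drawn up by role, and listed genes without a probe set paired with their symbol alone (7 of 22 Klr genes, 12 of 23 ligands and 2 of 31 adaptors) were not analysed here. Of 15 measured genes of the Klr families outside the 10, 1 rose, 0 fell and 14 did not pass, with a median change of 0.04. The gene that rose was Klri1, whose product pairs with KLRE1 as an inhibitory receptor. Klri1 read 4.08 and 4.21 in KO cells, against 3.16 and 3.05 in WT cells. The change of 1.04 was the largest in these lists in absolute size (SE 0.10, limma adjusted p = 4.98e-04), a 2.06-fold higher level. It passed in all 10 alternatives that tested it, with a highest adjusted p of 0.0128. Klri2, the activating counterpart that also pairs with KLRE1, read 2.64 and 2.64 in KO cells, against 2.19 and 2.35 in WT cells, and its change of 0.37 did not pass (limma adjusted p = 0.0971), though it did with a variance trend and robust moderation (0.0171). Their shared partner Klre1 differed by 0.03, as given above. Klrb1f (0.23) and Klrb1a (0.14) did not pass, and neither did the 6 measured Ly49 genes (Klra), between -0.10 and 0.05. Klr and Ly49 genes are alike in sequence and vary between strains, so a probe set can bind a relative and single values are uncertain.

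**Figure D3:**
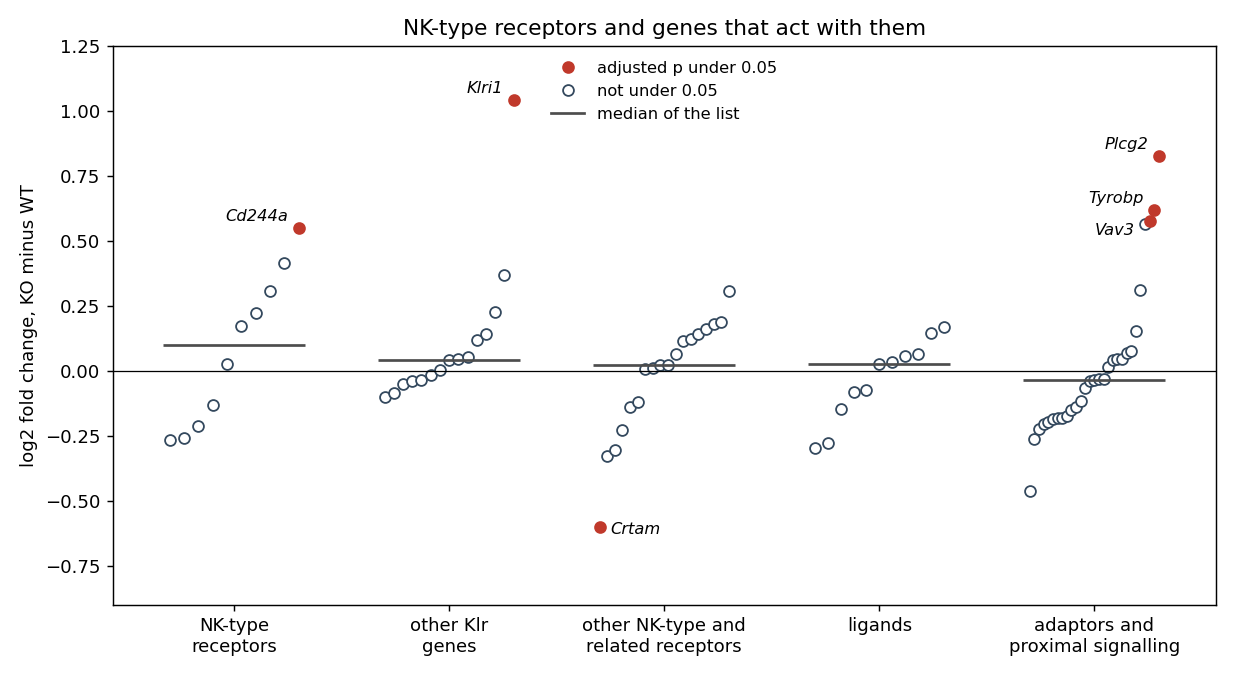
Log2 fold change (KO minus WT) of every measured gene in the NK-type receptor list and in 4 lists of related genes; filled points passed the limma test and lines mark list medians. The passing genes are Cd244a, Klri1, Plcg2, Tyrobp and Vav3 on the higher side and Crtam (-0.60) on the lower side.

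Of 18 other NK-type and related receptors, 0 rose, 1 fell and 17 did not pass (median 0.02). Crtam, an adhesion receptor of activated CD8 T and NK cells, read 6.92 and 6.93 in KO cells, against 7.64 and 7.41 in WT cells. It fell by 0.60 on the log2 scale (SE 0.10, limma adjusted p = 0.0160). That call was lost without KO replicate 1 (0.0832) or WT replicate 1 (0.151) and after a further quantile normalization (0.0694). Cd244a belongs to the SLAM family, and of its 5 measured relatives in this list (Ly9, Slamf1, Slamf6, Slamf7 and Cd84) 0 passed. Ly9, the next measured gene on one side of Cd244a, read 8.36 and 8.34 in KO cells, against 8.69 and 8.67 in WT cells (-0.33, limma adjusted p = 0.109). Slamf6 differed by -0.31 (limma adjusted p = 0.134) and Slamf1 by 0.31 (limma adjusted p = 0.225).

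The ligand list had 11 measured members, of which 0 passed (limma; 1 at an unadjusted p under 0.05), with a median of 0.03. Cd48, the ligand of 2B4, read 8.10 and 8.18 in KO cells, against 7.99 and 7.95 in WT cells (0.17, limma adjusted p = 0.411). Tnfrsf14 differed by 0.14 (limma adjusted p = 0.480). Clec2d, a ligand of NKR-P1 receptors, differed by -0.30 (limma adjusted p = 0.159), and H60b, a ligand of NKG2D, by -0.28 (limma adjusted p = 0.321).

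Adaptors and proximal signalling genes numbered 29. Of them 3 rose, 0 fell and 26 did not pass, with a median of -0.04. Besides Tyrobp, the phospholipase gene Plcg2, which acts downstream of NK and B cell receptors, rose by 0.82 (SE 0.09, limma adjusted p = 0.00145), with 5.94 and 5.90 in KO cells, against 5.08 and 5.11 in WT cells. The exchange factor gene Vav3 rose by 0.58 (SE 0.10, limma adjusted p = 0.0153), though not without WT replicate 2 (0.0873). Fcer1g, which encodes another receptor adaptor, differed by 0.56 and did not pass (limma adjusted p = 0.0975). With 1 array left out the change of Fcer1g ranged from 0.33 (without WT replicate 2) to 0.79 (without WT replicate 1), each resting on 1 WT array. Sh2d1a, Sh2d1b1 and Sh2d1b2 are named here for their role, after their values were seen. Sh2d1a encodes SAP, the adaptor that 2B4 uses. Sh2d1a read 5.57 and 5.77 in KO cells, against 6.33 and 5.94 in WT cells (-0.46, limma adjusted p = 0.120), below both WT arrays while its receptor gene Cd244a read above them. The change of Sh2d1a was -0.27 without WT replicate 1 and -0.66 without WT replicate 2, each resting on 1 WT array. Sh2d1a passed after median centring (-0.55, limma adjusted p = 0.0174). The related adaptors Sh2d1b1 and Sh2d1b2 differed by -0.18 and -0.15 (limma adjusted p = 0.366 and 0.466).

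Markers of other cell types were set beside these changes. Of 10 NK markers that are not members, Tyrobp rose, Eomes and Prf1 fell and 7 did not pass, and their mean log2 value per array was 4.64 to 4.81 in KO, against 4.80 to 4.83 in WT. Eomes (-1.45) and Prf1 (-0.89), which CD8 T cells express as well, weigh on that mean. Over all 10 the median change was -0.04, with 5 higher and 5 lower. Eomes and Prf1 were the only 2 of the 10 that fell. Without them the other 8 averaged 4.09 and 4.26 in KO, against 4.01 and 3.98 in WT, with a median change of 0.19. The 7 that did not pass differed by 0.56 (Fcer1g), 0.43 (Itga2), 0.37 (Klri2), 0.01 (Cma1), -0.09 (Klra8), -0.22 (Gzma) and -0.28 (Xcl1). Itga2, Cma1, Klra8, Gzma and Xcl1 are named here after their values were seen, to complete the list. Monocyte, macrophage and dendritic markers, of which 4 of 14 rose and 0 fell, averaged 4.44 to 4.57 in KO, against 4.14 to 4.19 in WT. Lyz2 (1.15), Mpeg1 (0.84), Flt3 (0.68) and Csf1r (0.58) rose, and 1 of the 14, Cd68, read lower (-0.34). Neutrophil and progenitor markers, of which 4 of 12 rose and 0 fell, averaged 4.66 to 4.71 in KO, against 3.94 to 4.05 in WT. Mpo, Prtn3, Ctsg and Elane rose, by 1.597 (Elane) to 1.965 (Mpo), and weigh on that mean. The 8 that did not pass differed by -0.12 (Ly6g) to 0.33 (Ngp). The groups overlapped for 3 of these, Ly6g, Camp (0.06) and Retnlg (0.08). For 11 B cell markers, 2 rose and 0 fell, and the averages were 5.73 to 5.78 in KO, against 5.41 to 5.48 in WT. Ighm (0.80) and Cd74 (0.53) rose, while the groups overlapped for 3 of the 11, among them Ms4a1 (0.01) and Cd22 (-0.05). Of 7 NKT and gamma-delta T markers, 2 rose, Il17rb (0.54) and Il23r (0.47). The 7 averaged 6.37 to 6.55 in KO, against 6.28 to 6.29 in WT. Of 4 CD4 T markers 1 rose, St8sia6 (0.55), and the 4 averaged 4.65 to 4.77 in KO, against 4.43 to 4.46 in WT. Cd4 itself read 4.07 and 3.47 in KO, against 3.79 and 3.88 in WT (-0.07, limma adjusted p = 0.879). The 8 measured CD8 T markers did not pass and averaged 9.78 to 9.85 in KO, against 9.91 to 9.92 in WT. The groups overlapped for 3 of them, among them the CD8 chains Cd8a (-0.07) and Cd8b1 (-0.01). Both KO arrays lay below both WT arrays for Thy1 (-0.34), Themis (-0.26) and Cd3d (-0.20), and above them for Cd3g (0.08) and Cd3e (0.07). The part of any of these cells in the rises of Cd244a, Klri1, Tyrobp and Plcg2 was not tested.

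**Figure D4:**
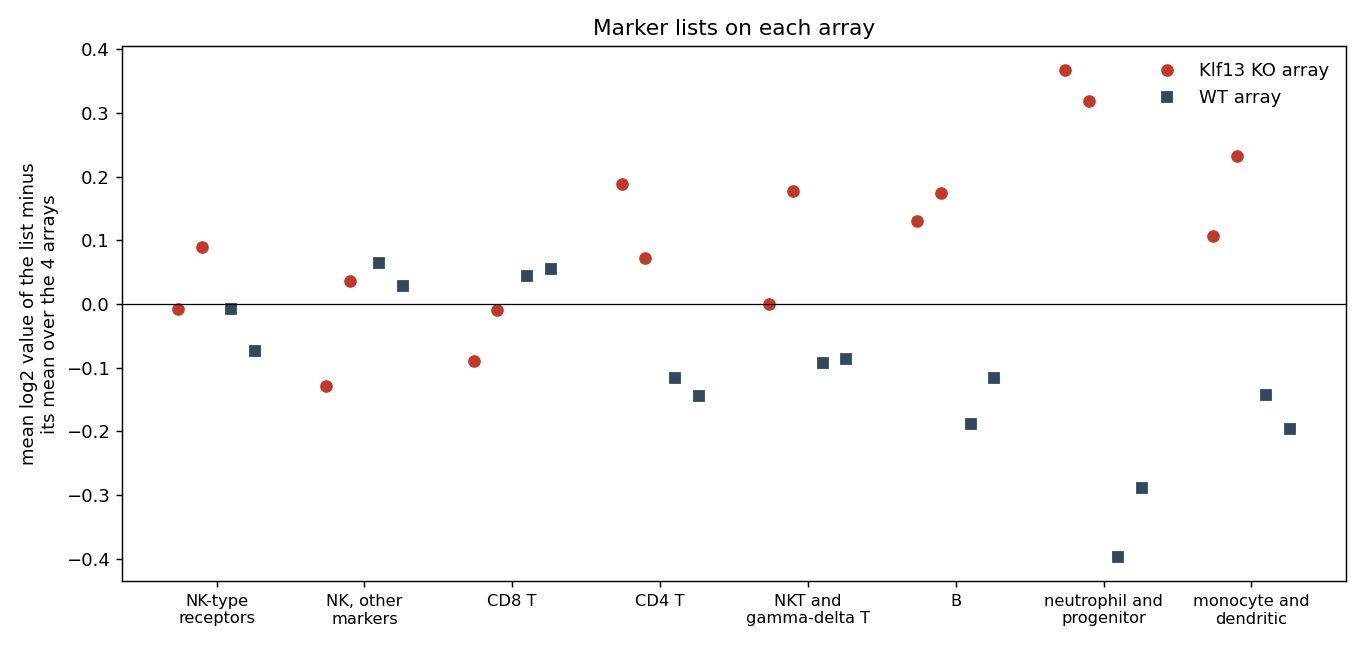
Mean log2 value of each marker list on each array, minus the list's mean over the 4 arrays, with KO arrays as circles and WT arrays as squares. KO arrays lie above WT arrays for the B, CD4 T, NKT and gamma-delta T, neutrophil and monocyte lists, and below them for CD8 T. Single genes depart from these list means, among them Cd4 (-0.07), Ly6g (-0.12) and Cd3g (0.08).

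The genes whose pattern over the 4 arrays lay closest to that of Cd244a were Grn, Ttc3 and N4bp3, at Euclidean distances of 0.03, 0.03 and 0.04 between log2 values centred on each gene's mean. Their changes were 0.53, 0.54 and 0.55, and with 4 arrays many genes share such a pattern.

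Under the alternatives in processing, Cd244a stayed above zero in all 10 that tested it (0.46 to 0.59) and passed in 9. It was not tested in the brighter set of 9969 genes, which left it out. The changes of Klrd1, Klrk1 and Hcst were below zero in every alternative that tested them, and those of Ncr1, Klrb1c, Cd160 and Klrg1 above zero. Much of this was fixed in advance. Each gene had 1 probe set, so other probe-set rules, the variance model and the replicate number as a block left its value unchanged. Leaving out 1 array cannot turn a sign where the KO and WT arrays do not overlap, as for all of these but Klrg1. For those genes only the further normalizations could turn the sign.

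**Figure D5:**
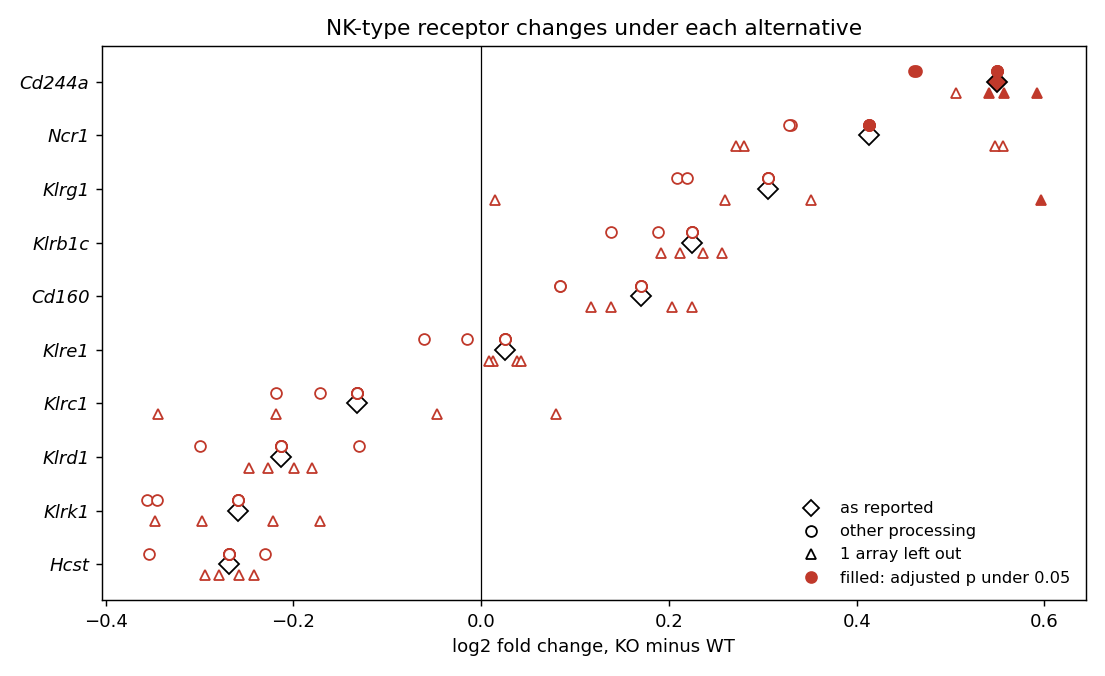
Log2 fold change (KO minus WT) of each NK-type receptor gene as reported (diamonds), under other processing (circles) and with 1 array left out (triangles); filled symbols passed the limma test. Klrc1 and Klre1 cross zero, Klrg1 ranges from 0.01 to 0.60, and Cd244a stays between 0.46 and 0.59.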

How the data were processed

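The authors deposited log2 probe-set values of 1-colour Affymetrix arrays. The submitters' processing notes name RMA and Partek, without versions, and the values (1.34 to 13.5) lie on the scale of RMA. RMA is meant to make the arrays' distributions alike, which would remove a shift of most genes in one direction. The deposited distributions were not fully alike, with upper quartiles from 6.52 (KO replicate 1) to 6.67 (WT replicate 1), so such a shift need not be removed in full. Per the labels' protocols, total RNA of high integrity was labelled by a whole-transcript method. No genome build is given in the sources used here, and GRCm38.p6 served for names, gene order and promoter sequence. The table held 35556 probe sets, of which 21789 were paired with 1 gene symbol, 1621 with several and 12146 with none listed. Symbols were updated by gene identifier (21698 matched). For each of 19938 genes the single-symbol probe set of highest 4-array mean was used, and each of the 10 receptor genes had 1 such probe set.

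KO was compared with WT by limma 3.58.1 in R 4.3.3 (lmFit, eBayes, two-sided, genotype as the only term, Benjamini-Hochberg over all genes, threshold 0.05), with 95% intervals from the moderated spread (prior degrees of freedom 8.06). The procedure was tested on simulated data. The upper quartile of probe-set values was 6.52 in KO replicate 1, against 6.63 in KO replicate 2 and 6.66 to 6.67 in the WT arrays. Over genes, the standard deviation of the difference was 0.191 between the KO arrays and 0.128 between the WT arrays. Between a KO and a WT array it ranged from 0.192 (KO replicate 2, WT replicate 2) to 0.254 (KO replicate 1, WT replicate 1). With 4 arrays, their number limits the precision.

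The members and lists were chosen with earlier results of these data known. Named are all members, Klf13, and of each related list the passing genes and up to 4 genes with the smallest p. Also named are the passing markers, some other markers picked with their values known, and the 3 genes closest to a passing member. Slamf7 and Cd84 were named to complete the SLAM relatives, and other genes named otherwise are marked. Alternatives were other probe-set rules, a filter on dim genes, further normalization, another variance model, the replicate number as a block and each array left out.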

Additional observations from a re-analysis of the deposited data

How the results depend on the processing

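Of the 448 genes that passed, numbers moved to 1088 after median centring, 831 with a variance trend and robust moderation and 1187 with the replicate number as a block; leaving out 1 array gave 264 to 1536. Members called numbered 0 in the brighter set of 9969 genes, which holds 3 members without Cd244a, and 2 (Cd244a and Ncr1, limma adjusted p = 0.00936) with the replicate block; leaving out 1 array gave 0 to 2. The samples share only a number: deviations of same-numbered arrays correlated at 0.0074 over genes, so the block is no evidence of pairing. The members' median of 0.10 was -0.21 among the brighter genes (3 members), 0.0342 after a further quantile normalization, 0.0120 after median centring and 0.0118 to 0.133 with 1 array left out. Over all genes the median moved as well, from 0.0150 to -0.0025 after the further quantile normalization and to -0.0711 after median centring. Klre1 turned to -0.0153 and -0.0604 under those normalizations, and Klrc1 ranged from -0.345 to 0.0796 with 1 array left out, positive without WT replicate 1. Other Klr genes called were 0 among the brighter genes, 2 (Klri1 and Klri2) with the variance trend and 2 with the block. Other receptors called were 0 after a further quantile normalization, 3 (Crtam, Slamf6 and Ly9) after median centring and 3 with the variance trend, and 0 to 1 with 1 array left out. Ligands called were 1 (Clec2d) after median centring. Adaptors called were 5 with the variance trend and 5 with the block, Fcer1g among both (limma adjusted p = 0.0342 and 7.02e-05) and Sh2d1a with the block (0.00228); Fcer1g also passed in the brighter set (0.0420). Causes were not tested beyond the smaller number of genes among the brighter ones. Dim levels limit most members, and 2 arrays a group limit every value.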
